A study of Homo sapiens with 6 samples.

Results

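The 7 APOBEC3 genes (APOBEC3A, APOBEC3B, APOBEC3C, APOBEC3D, APOBEC3F, APOBEC3G and APOBEC3H) and ADAR were followed in SiHa cells with and without BRCA1 overexpression. These 8 genes were chosen by name among the 58174 genes of the files, and all 8 were found. SiHa is an established human line grown from a cervical squamous tumour. In the OV-BRCA1 group (3 samples) the cells had been transfected with GV230-BRCA1, and in the NC group (3 samples) with GV230 alone, in both cases with Lipofectamine 3000 and 48 h before RNA was taken. Both groups thus carried plasmid DNA, and untransfected cells were not analysed here. The methods of the study call the 3 samples of a group biological replicates. They came from 1 cell line, and whether they were separate transfections is not given in the sources used here. Values of single samples are given in the order of replicates 1, 2 and 3.

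APOBEC3 enzymes remove an amino group from cytidine in single-stranded DNA and turn it into uracil, which blocks retroviruses and retroelements and can mutate the DNA of the cell itself. Several APOBEC3 genes respond to interferon or to NF-kB, and APOBEC3A and APOBEC3B are the members usually discussed as a source of mutations in cervical and other squamous cancers. ADAR removes an amino group from adenosine in double-stranded RNA and leaves inosine. It is made as p110, from a constitutive start, and as the longer p150, from an interferon-inducible start. Editing by ADAR marks the RNA of the cell as its own and so keeps the double-stranded RNA sensors from responding to it.

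The APOBEC3 genes lie head to tail on chromosome 22 of GRCh38, from 38952741 (APOBEC3A) to 39104067 (APOBEC3H), and ADAR lies on chromosome 1, from 154582057 to 154628013. Positions and names are those of GENCODE release 29. An APOBEC3 enzyme holds 1 or 2 zinc sites, made of a histidine, a glutamate and a pair of cysteines. In the coding sequences searched here, APOBEC3A, APOBEC3C and APOBEC3H had 1 such site, and APOBEC3B, APOBEC3D, APOBEC3F and APOBEC3G had 2. The sites of the members with the highest values in these cells, APOBEC3C and APOBEC3F, are printed 5′ to 3′ because they show how alike the genes are from which the reads came. Capitals mark the codons of the histidine, the glutamate and both cysteines.
APOBEC3C, exon 3, chr22:39017787-39017891, plus strand: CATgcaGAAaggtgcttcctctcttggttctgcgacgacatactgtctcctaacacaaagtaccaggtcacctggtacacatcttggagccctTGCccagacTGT
APOBEC3F, second site, exon 6, chr22:39052095-39052199, plus strand: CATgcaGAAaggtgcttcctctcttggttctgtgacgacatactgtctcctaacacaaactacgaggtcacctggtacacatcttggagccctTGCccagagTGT
APOBEC3F, first site, exon 3, chr22:39044962-39045066, plus strand: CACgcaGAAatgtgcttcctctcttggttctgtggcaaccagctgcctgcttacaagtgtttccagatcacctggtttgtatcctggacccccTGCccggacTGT
The APOBEC3C stretch matched the second stretch of APOBEC3F at 101 of 105 bases. The second stretch of APOBEC3F was identical to the second stretch of APOBEC3D over all 105 bases, and its first stretch was identical to the first stretch of APOBEC3B. The stretch of APOBEC3A was identical to the second of APOBEC3B over 111 bases. Of all stretches of 100 bases in the transcript used for each gene, 0% were found in a transcript of another gene for APOBEC3C, APOBEC3H and both main ADAR transcripts. The share was 11.3% for APOBEC3G, 12.7% for APOBEC3A, 13.5% for APOBEC3F, 29.4% for APOBEC3B and 84.4% for APOBEC3D. In APOBEC3D most of this was AL022318.4, a gene model that overlaps it on the same strand and was listed at 0 in all 6 samples. How the authors assigned reads with more than 1 origin is not given in the sources used here, so values of APOBEC3D and APOBEC3B in particular are uncertain.

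Depth was estimated from the value of 1 fragment in genes with a single transcript, and it came to about 14.35 to 16.58 M fragments per OV-BRCA1 sample and 16.27 to 20.39 M per NC sample. Pearson's r of log2(FPKM + 1) over the tested genes was 0.985 to 0.986 within groups and 0.951 to 0.955 between groups, so no sample stood apart from its group. BRCA1, the overexpressed gene, stood at 35.7, 40.8 and 34.9 FPKM in the OV-BRCA1 group and at 20.1, 14.9 and 21.7 FPKM in the NC group (log2 fold change 0.95, Benjamini-Hochberg adjusted p = 0.00373 in limma). FPKM is the number of fragments of a transcript scaled to its length and to the depth of the sample. In such bulk values, fewer cells with an mRNA and less of it per cell cannot be told apart. KRT7 and KRT17, keratins of epithelial cells, were among the high genes (means of 1617 and 1033 FPKM in the OV-BRCA1 group), whereas the basal squamous markers KRT5, KRT14 and TP63 were at or below a mean of 0.615 FPKM in both groups. Of the 12 squamous and epithelial markers 8 were tested, and 4 were higher (KRT6A, KRT8, KRT18 and EPCAM), 1 was lower (KRT17) and 3 did not pass at an adjusted p-value of 0.05, with a median log2 fold change of 0.23. Of all genes tested, 16.4% were higher and 18.9% lower. The study lists both KRT17 and KRT8 among its downregulated genes, so the direction of KRT8 here is opposite to the one it reported. The cause of this difference was not tested. The summed FPKM of the 12 markers was 3332 to 3493 in the OV-BRCA1 group and 3719 to 3843 in the NC group. KRT17 alone stood at 1033 ± 90.3 against 1434 ± 8.68 (SD, n = 3 each). The part of these markers in the results was not tested. Of 12 blood cell markers, 5 were listed at 0 in all samples, PTPRC (CD45), CD3D, MS4A1 and HBB among them, and only CD68 was tested. The summed FPKM of the 12 was 22.8 to 29.95 in the OV-BRCA1 group and 3.58 to 5.31 in the NC group, mostly from CD68 (26.3 ± 3.73 against 3.43 ± 0.718, SD, n = 3 each), and its part in the results was not tested.

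**Figure D1:**
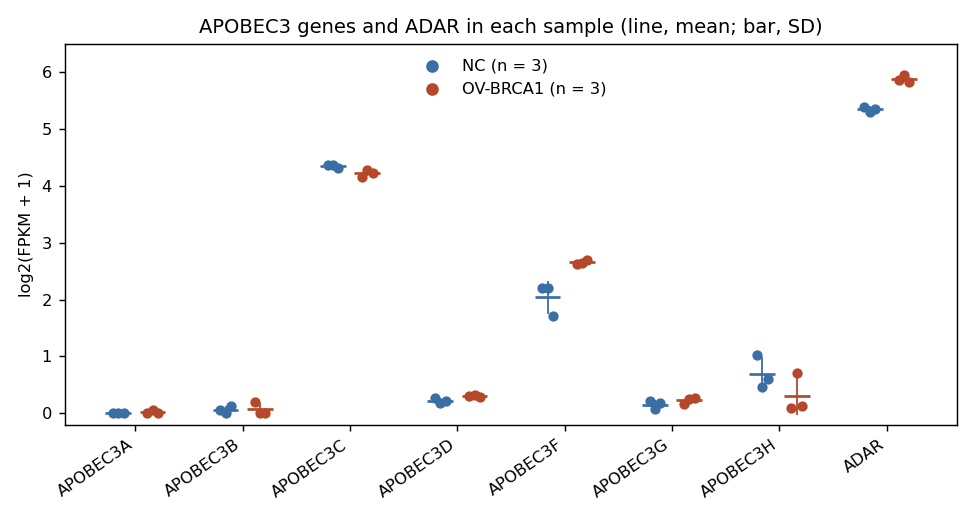
Each point is 1 sample, on the y axis as log2(FPKM + 1), with the 3 NC samples in blue and the 3 OV-BRCA1 samples in red; lines are group means and bars are SD. ADAR and APOBEC3F show separate groups with the OV-BRCA1 samples higher, APOBEC3C shows separate groups close together with the OV-BRCA1 samples lower, and the other 5 genes lie at or below 1.04 FPKM in all samples, APOBEC3H with overlap.

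Of the 8 genes, ADAR and APOBEC3F were higher in the OV-BRCA1 group, by 1.46-fold and 1.68-fold in mean FPKM. APOBEC3C, the most abundant APOBEC3 mRNA of these cells, did not pass the test. APOBEC3A, APOBEC3B, APOBEC3D and APOBEC3G were close to or at 0 in both groups and did not pass the filter on low values. The groups were compared by limma's moderated test on log2(FPKM + 1) over the 16321 genes with at least 0.5 FPKM in at least 3 samples, with Benjamini-Hochberg adjustment over all of them. The 4 members that passed this filter were ADAR, APOBEC3C, APOBEC3F and APOBEC3H, and 2 of them had an adjusted p-value below 0.05, both higher. Among all genes tested, 35.3% had such a p-value, 16.4% being higher and 18.9% lower. None of the 4 passed the criterion of the study, which also asks for an absolute log2 fold change above 1, and 3.99% of all genes did (651 genes, or 1280 with a pseudocount of 0.1). At an unadjusted p-value below 0.05 the limma count was also 2 higher and 0 lower. Without the filter on low values it was 2 higher and 1 lower, the lower one being APOBEC3C (unadjusted p = 0.0314, Benjamini-Hochberg adjusted p = 0.136 in limma). The share of all genes at an unadjusted p-value below 0.05 is not given here. These counts and the later ones at an unadjusted p-value are therefore a description only. The medians of the log2 fold change were 0.20 for the 4 members and -0.04 for all genes tested.

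The order of the levels, per length, was the same at the top in every sample. ADAR was followed by APOBEC3C and then APOBEC3F in 6 of 6 samples, with means over all samples of 49.1, 18.6 and 4.23 FPKM. APOBEC3H (0.454), APOBEC3D (0.202) and APOBEC3G (0.142) followed, and their order changed between samples. APOBEC3B (0.0471) and APOBEC3A (0.00663) had the lowest means, and the samples of these 2 overlapped.

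ADAR stood at 57.7, 61.2 and 56.0 FPKM in the OV-BRCA1 group and at 41.1, 38.4 and 40.1 FPKM in the NC group. The groups did not overlap, which was the case for 50.8% of all genes tested (23.4% with the OV-BRCA1 group higher and 27.4% with it lower), and the spread within each group was small. The group means were 58.3 ± 2.68 and 39.9 ± 1.35 (SD, n = 3 each). The log2 fold change of FPKM + 1 was 0.54 (standard error 0.06, 95% confidence interval 0.40 to 0.67, Benjamini-Hochberg adjusted p = 8.85e-04 in limma). These values rest on about 3653 to 5601 estimated fragments per sample. A larger log2 fold change than that of ADAR was found for 9.48% of the genes tested.

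The files divide ADAR over 10 transcripts, of which 2 hold 75.2% to 82.5% of its FPKM. ADAR-202 (ENST00000368474) encodes p150 and begins near 154608186, and ADAR-201 (ENST00000368471) encodes p110 and begins near 154627968, upstream of ADAR-202 on the minus strand. Their coding sequences have 1226 and 931 codons, and that of p110 is the end of that of p150 without its first 295 codons. The first 30 coding bases of each are shown because they mark where the proteins begin, with the start codon in capitals. The start codon lies in exon 1 of ADAR-202, whose first 30 coding bases span an intron, and in exon 2 of ADAR-201, at chr1:154601727-154601756. Both are given along the minus strand.
ADAR-202, p150: ATGaatccgcggcaggggtattccctcagc
ADAR-201, p110: ATGgccgagatcaaggagaaaatctgcgac
Very little sequence tells these transcripts apart. Of 6511 stretches of 100 bases in ADAR-202, 26 (0.399%) occur in no other ADAR transcript of the files, and of 6420 in ADAR-201, 56 (0.872%) do.

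The division between both transcripts varied more within the groups than between them. ADAR-202 stood at 20.6, 0.417 and 41.7 FPKM in the OV-BRCA1 group and at 28.6, 30.04 and 11.3 FPKM in the NC group. ADAR-201 stood at 27.0, 45.6 and 3.28 FPKM against 2.70, 0.434 and 19.8 FPKM in the same order. OV-BRCA1 sample 2 was the highest in ADAR-201 and the lowest in ADAR-202, and OV-BRCA1 sample 1 and NC sample 3 held much of both. The p150 transcript made up 43.3%, 0.907% and 92.7% of both in the OV-BRCA1 group and 91.4%, 98.6% and 36.4% in the NC group. A further protein-coding transcript, ADAR-208, with 1200 codons, stood at 0.853, 4.06 and 2.86 FPKM against 1.37, 0.704 and 0.733 FPKM, with a log2 fold change of 0.79 (Benjamini-Hochberg adjusted p = 0.328 in limma). GENCODE release 29 starts it at 154608170, near the p150 start, and the files at 154602626. Counted as p150, a choice made after the values were seen, it brought the p150 share to 44.3%, 8.94% and 93.1% against 91.8%, 98.6% and 37.8%. The log2 ratio of p150 to p110 (FPKM + 1) differed by -2.93 between the group means, -0.70 ± 4.19 and 2.23 ± 2.68 (SD, n = 3 each), which is within the spread of the samples (exact two-sided permutation test, p = 0.5, where the smallest possible value with 3 samples against 3 is 0.1). With ADAR-208 counted as p150 the difference was -2.29 (exact two-sided permutation test, p = 0.5). In the limma fit over 50925 transcripts the log2 fold change was -1.04 for ADAR-202 (adjusted p = 0.704) and 1.89 for ADAR-201 (adjusted p = 0.465), and 5.47% of all transcripts tested had an adjusted p-value below 0.05. The direction of ADAR-202 rested on OV-BRCA1 sample 2, without which its log2 fold change was 0.43 (Benjamini-Hochberg adjusted p = 0.717 in limma). With single samples left out, the log2 fold change of ADAR-201 ran from 1.02 to 2.94 and the difference in the log2 ratio from -4.93 (without OV-BRCA1 sample 3) to -0.76 (without OV-BRCA1 sample 2). No difference in the use of the p150 and p110 transcripts was therefore detectable in these values.

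The sum of both transcripts varied less than either. It stood at 47.5, 46.0 and 45.0 FPKM in the OV-BRCA1 group and at 31.3, 30.5 and 31.1 FPKM in the NC group, a ratio of means of 1.49. The groups did not overlap (exact two-sided permutation test, p = 0.1, the smallest possible). The other 8 transcripts together stood at 12.1 ± 2.72 FPKM against 8.91 ± 0.919 FPKM (SD, n = 3 each), without overlap but by a narrow margin. The lowest OV-BRCA1 value was 10.12 FPKM and the highest NC value 9.755 FPKM. OV-BRCA1 sample 2, at 15.2 FPKM, stood above the other OV-BRCA1 samples. The higher ADAR value of the OV-BRCA1 group was thus found in the summed values, and the division between the starts does not say which of them it came from.

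**Figure D2:**
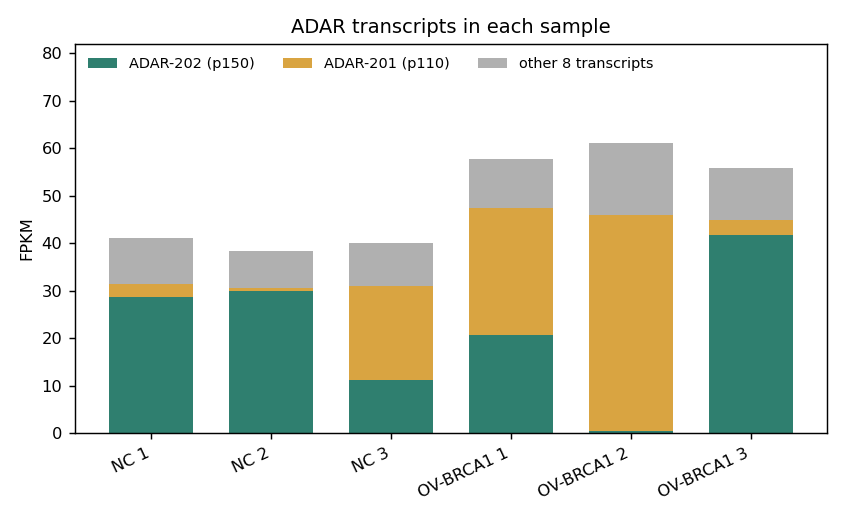
Each bar is 1 sample, and its height is the FPKM of ADAR, divided into ADAR-202 (p150, green), ADAR-201 (p110, yellow) and the other 8 transcripts (grey). The bars of the OV-BRCA1 samples are all taller than those of the NC samples, while the green share runs from 0.907% to 98.6% of green and yellow and is low or high in both groups.

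APOBEC3F encodes an enzyme with 2 zinc sites that acts on retroviral and retroelement DNA. It stood at 5.21, 5.23 and 5.46 FPKM in the OV-BRCA1 group and at 3.62, 3.61 and 2.27 FPKM in the NC group. The OV-BRCA1 samples lay close together and above all NC samples, of which sample 3 was the lowest. Separate groups with the OV-BRCA1 group higher were found for 23.4% of the genes tested. The means were 5.30 ± 0.141 and 3.16 ± 0.778 (SD, n = 3 each), and the log2 fold change was 0.62 (standard error 0.15, 95% confidence interval 0.26 to 0.98, Benjamini-Hochberg adjusted p = 0.0213 in limma). The call was a narrow one. It was lost without OV-BRCA1 sample 1, 2 or 3 (adjusted p = 0.0548, 0.0563 and 0.0636) and without the filter on low values (0.0553), while the log2 fold change stayed between 0.45 and 0.76 in all alternatives. The values rest on about 84.5 to 158 estimated fragments per sample.

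Of the 4 APOBEC3F transcripts, the full-length APOBEC3F-201, with 373 codons, stood at 3.18, 2.58 and 2.997 FPKM in the OV-BRCA1 group and at 1.42, 1.71 and 1.42 FPKM in the NC group. These groups did not overlap, as in 12.6% of the transcripts tested with the OV-BRCA1 group higher, but in the fit over all transcripts the log2 fold change of 0.64 missed the threshold (Benjamini-Hochberg adjusted p = 0.0617 in limma). APOBEC3F-202, which has 101 codons and ends at 39044423, before the first zinc site, stood at 2.01, 2.41 and 2.004 FPKM against 2.03, 1.69 and 0.746 FPKM. Here the groups overlapped.

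APOBEC3C encodes an enzyme with a single zinc site and was the main APOBEC3 mRNA of these cells. It stood at 17.0, 18.4 and 17.8 FPKM in the OV-BRCA1 group and at 19.8, 19.7 and 18.9 FPKM in the NC group. All OV-BRCA1 samples lay below all NC samples, as in 27.4% of the genes tested, but by little. The log2 fold change was -0.13 (95% confidence interval -0.27 to 0.01, Benjamini-Hochberg adjusted p = 0.128 in limma), so a fall beyond 0.27 on this scale or a rise beyond 0.01 lies outside the interval. Nearly all of it was APOBEC3C-201, with 190 codons, at 16.5, 17.7 and 17.8 FPKM against 19.8, 19.4 and 18.3 FPKM. The estimated fragments numbered about 721 to 1066 per sample.

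APOBEC3C made up 74.3% to 74.9% of the summed FPKM of the 7 APOBEC3 genes in the OV-BRCA1 samples and 79.7% to 85.6% in the NC samples. APOBEC3F made up 21.2% to 22.9% and 10.3% to 15.1%. The ratio of APOBEC3C to APOBEC3F was 3.25, 3.51 and 3.27 in the OV-BRCA1 group and 5.47, 5.46 and 8.35 in the NC group. The groups did not overlap in this ratio, which follows from all OV-BRCA1 samples being lower in APOBEC3C and higher in APOBEC3F. The sum of the 7 genes did not separate the groups, at 22.7, 24.7 and 23.8 FPKM against 24.8, 23.9 and 22.1 FPKM (exact two-sided permutation test, p = 1).

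APOBEC3H encodes a further enzyme with a single zinc site of a type of its own. It stood at 0.0602, 0.632 and 0.0958 FPKM in the OV-BRCA1 group and at 1.04, 0.376 and 0.525 FPKM in the NC group. The groups overlapped, and the log2 fold change of -0.39 (95% confidence interval -0.93 to 0.15, Benjamini-Hochberg adjusted p = 0.22 in limma) did not pass the test. A pseudocount of 0.1 gave -1.29, and leaving out single samples gave -0.23 (without NC sample 1) to -0.59 (without OV-BRCA1 sample 2), none of which passed the threshold. Its highest transcript by mean, APOBEC3H-205, is a retained intron. With about 1 to 11.7 estimated fragments per sample, single fragments weighed heavily.

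The remaining 4 genes did not pass the filter. APOBEC3B encodes a nuclear enzyme with 2 zinc sites. It stood at 0.154 FPKM in OV-BRCA1 sample 1, at 0.0348 and 0.0938 FPKM in NC samples 1 and 3, and was listed at 0 in the other 3 samples. APOBEC3A, which encodes an enzyme with a single zinc site, stood at 0.0398 FPKM in OV-BRCA1 sample 2 and was listed at 0 in the other 5. All of these values lay in APOBEC3B-203 and APOBEC3A-202. That is about 1 estimated fragment for APOBEC3A and at most 4.6 for APOBEC3B. Neither APOBEC3A-205 (ENST00000618553), an APOBEC3A transcript that runs on to 38992778, inside the APOBEC3B gene, nor APOBEC3B-AS1, on the opposite strand, was listed above 0 in any sample. Both genes were thus at the limit of detection in either group, and a difference between the groups was not detectable at this depth.

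APOBEC3D, with 2 zinc sites, stood at 0.233, 0.257 and 0.219 FPKM in the OV-BRCA1 group and at 0.200, 0.139 and 0.166 FPKM in the NC group. Its highest transcript was APOBEC3D-201. The groups were separate by a narrow margin, on about 6.6 to 10.8 estimated fragments per sample. How often the groups separate in genes below the filter is not given here. APOBEC3G, which encodes the classical inhibitor of retroviruses that lack Vif, stood at 0.113, 0.185 and 0.212 FPKM against 0.162, 0.0496 and 0.129 FPKM, and its groups overlapped. Most of the APOBEC3G value lay in the retained-intron transcript APOBEC3G-203, and its only protein-coding transcript was listed at 0 in all NC samples and reached at most 0.0347 FPKM in the OV-BRCA1 group. In a limma fit without the filter, over 33326 genes, none of these 4 genes had an unadjusted p-value below 0.05, the lowest being 0.0576 for APOBEC3D.

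**Figure D3:**
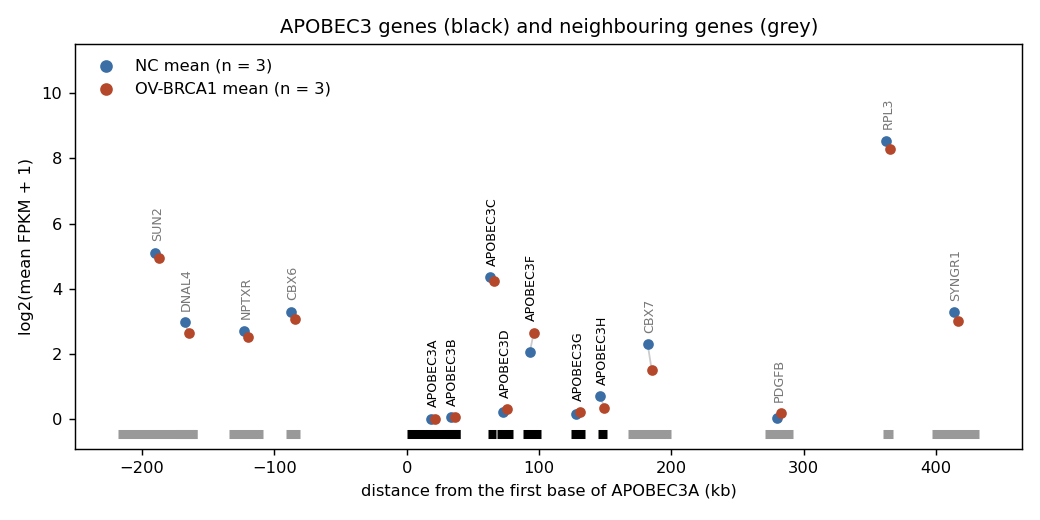
The x axis is the distance in kilobases from the first base of APOBEC3A, and bars at the bottom are the genes, members in black and neighbours in grey. Points are log2(mean FPKM + 1) of the NC group (blue) and the OV-BRCA1 group (red), n = 3 each. Within the cluster APOBEC3C and APOBEC3F stand above the others, and APOBEC3F is the one with the red point clearly above the blue one.

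The APOBEC3 genes share their stretch of chromosome 22 with genes of other functions, of which 8 were listed and 7 tested. None of the 7 was higher, 3 were lower and 4 did not pass the test (0 higher and 4 lower at an unadjusted p-value in limma), with a median log2 fold change of -0.25. CBX7, a Polycomb gene 167.4 to 199.9 kb from the first base of APOBEC3A, stood at 1.86 ± 0.116 FPKM against 3.91 ± 0.154 FPKM (SD, n = 3 each). Its log2 fold change was -0.78 (Benjamini-Hochberg adjusted p = 8.22e-04 in limma). CBX6, a further Polycomb gene on the other side, and DNAL4, a dynein light chain gene, fell by 0.23 and 0.32 on the log2 scale. Among 7 genes near ADAR, 5 were tested, of which 2 were lower, 3 did not pass and none was higher (0 at an unadjusted p-value in limma). PBXIP1 fell by 1.01 and PMVK, a gene of the mevalonate pathway, by 0.61. KCNN3 was listed at 0 in all samples. Among all genes tested 16.4% were higher and 18.9% lower, and with lists of only 7 and 5 genes the counts of 0 higher and of 3 and 2 lower are given as a description.

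Of a list of 6 relatives of the APOBEC3 genes and cofactors, APOBEC1 was listed at 0 in all samples, and only RBM47, which encodes a cofactor of APOBEC1, was tested, with a log2 fold change of -0.26 (Benjamini-Hochberg adjusted p = 0.0951 in limma). Of 7 other adenosine deaminase genes, 5 were tested, 1 was higher, 1 was lower and 3 did not pass, near the background of 16.4% higher and 18.9% lower. ADARB1, the gene of the second active editing enzyme ADAR2, stood at 34.3, 38.1 and 34.6 FPKM in the OV-BRCA1 group and at 27.0, 31.4 and 26.1 FPKM in the NC group. Its log2 fold change was 0.33 (Benjamini-Hochberg adjusted p = 0.0267 in limma). ADAT1, which edits tRNA, stood at 44.0, 45.2 and 47.4 FPKM against 56.3, 58.2 and 63.0 FPKM and fell by 0.37 on the log2 scale. Both pairs of groups were separate, as in 50.8% of the genes tested. ADAD1 was listed at 0 in all samples.

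Uracil left in DNA by an APOBEC3 enzyme is removed by base excision repair. All 15 listed genes of uracil and abasic site repair were tested, with 0 higher, 2 lower and 13 not past the threshold (3 higher and 4 lower at an unadjusted p-value in limma) and a median log2 fold change of -0.01. The background was 16.4% higher and 18.9% lower. HMCES, which shields abasic sites, was one of the lower genes and fell by 0.37 on the log2 scale. UNG, the main uracil DNA glycosylase, was named after its values had been seen. It stood at 40.3, 38.3 and 26.9 FPKM in the OV-BRCA1 group and at 20.8, 17.4 and 29.9 FPKM in the NC group, with overlap, and did not pass the test (log2 fold change 0.62, Benjamini-Hochberg adjusted p = 0.0796 in limma).

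Double-stranded RNA is the substrate of ADAR and also the signal of a group of sensors. Of 14 listed genes of these sensors and their effectors 12 were tested, and 9 were higher, 1 was lower and 2 did not pass, with a median log2 fold change of 1.17, where 16.4% of all genes tested were higher and 18.9% lower. This list holds interferon-stimulated genes whose rise in these samples was known when it was written. DDX58, which encodes the sensor RIG-I, stood at 142 ± 3.18 FPKM against 18.0 ± 0.503 FPKM (SD, n = 3 each) and rose by 2.91 on the log2 scale (Benjamini-Hochberg adjusted p = 1.24e-06 in limma). OAS2, which makes the activator of RNase L, and IFIH1, which encodes the sensor MDA5, rose by 2.79 and 2.57 on the log2 scale. EIF2AK2, the gene of the kinase PKR, which ADAR is known to hold back, was named after its values had been seen and rose by 1.09. MAVS, the adaptor of RIG-I and MDA5, stood at 5.38 ± 0.312 FPKM against 7.5 ± 0.218 FPKM and fell by 0.41. ZBP1 and RIPK3, which act in necroptosis set off by Z-form RNA, were listed at 0 in all samples.

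Of 19 listed regulators of APOBEC3 and ADAR transcription, all were tested, with 7 higher, 1 lower and 11 not past the threshold (7 higher and 2 lower at an unadjusted p-value in limma) and a median log2 fold change of 0.14. Over all genes tested, 16.4% were higher and 18.9% lower. The higher ones included the noncanonical NF-kB genes RELB (8.43 ± 0.640 against 2.87 ± 0.734 FPKM, SD, n = 3 each, log2 fold change 1.30) and NFKB2 (0.84) and the interferon regulatory factor gene IRF1 (1.00). STAT2 and IRF9, which act together in the response to type I interferon, were named with their values known and rose by 0.93 and 0.72 on the log2 scale. E2F1, a cell cycle transcription factor, fell by 0.24. RELA is the gene of the main canonical NF-kB subunit. It stood at 33.5, 15.8 and 19.9 FPKM in the OV-BRCA1 group and at 37.6, 39.6 and 37.4 FPKM in the NC group. All OV-BRCA1 samples were lower, as in 27.4% of the genes tested. RELA missed the threshold (log2 fold change -0.77, Benjamini-Hochberg adjusted p = 0.0544 in limma).

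**Figure D4:**
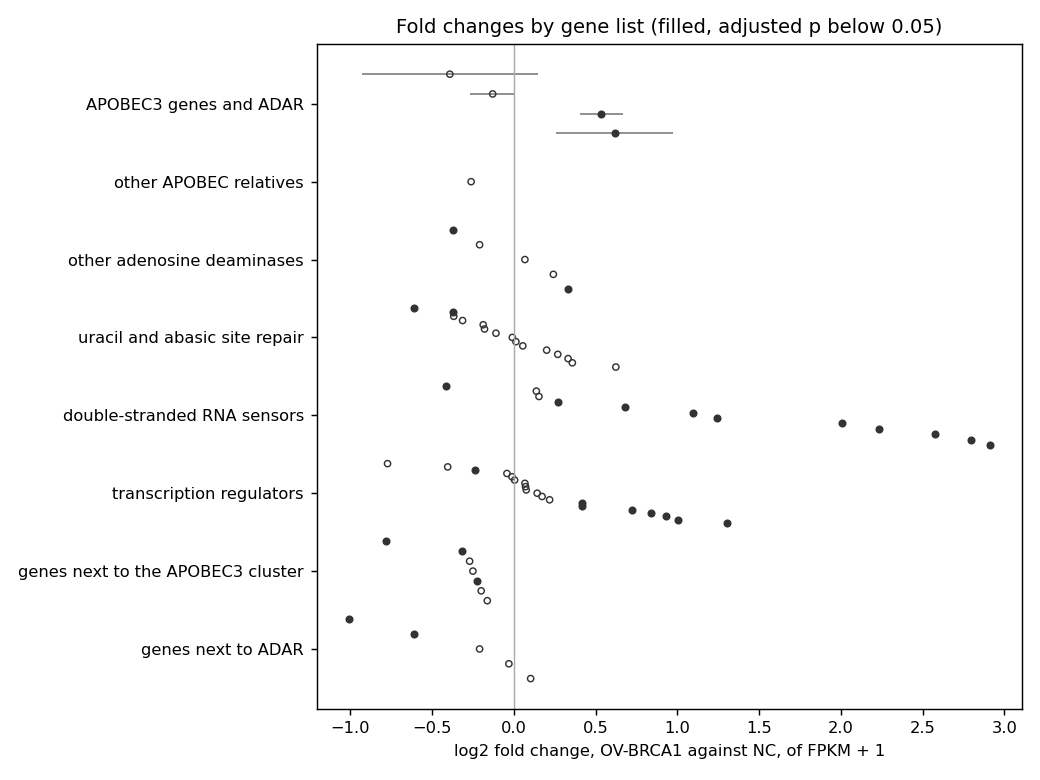
Each circle is a tested gene of a list, placed on the x axis by its log2 fold change of FPKM + 1 between the OV-BRCA1 and NC groups; filled circles have an adjusted p-value below 0.05, and the grey bars of the APOBEC3 genes and ADAR are 95% confidence intervals. ADAR and APOBEC3F lie near 0.5 to 0.6, whereas 7 double-stranded RNA sensor genes lie above 1.

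For the 3 members with the highest mean, the genes with the most similar pattern were sought by the distance between log2(FPKM + 1) values of the 6 samples, each gene centred on its mean. For ADAR they were RRP15 (distance 0.0702), PLOD1 (0.0716) and TGFBR2 (0.0858). For APOBEC3C they were POM121C (0.0286), MLF2 (0.0533) and PLP2 (0.0543), and for APOBEC3F they were CDC73 (0.113), STK26 (0.132) and AC040162.1 (0.146). The likeness is a description over 6 samples in 2 groups.

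RefSeq promoter windows (GRCh38.p14, 250 bases before to 50 after a start) matched ADAR and APOBEC3H among the 8 genes, with 3 windows and 1 window. The letters GAAANNGAA of interferon-response elements, TTCNNNGAA of gamma-activated sites and GGGANTTTC of NF-kB sites were searched on both strands and were in none of these 4 windows. The window nearest to the p150 start, chr1:154608748-154609047, lies upstream of the first base of ADAR-202, so that start was not covered. The letters were in 8.11%, 7.66% and 1.28% of all 35116 windows.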

How the data were processed

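The authors sequenced mRNA of 6 samples, filtered the reads, and deposited FPKM values per transcript. The submitters' processing notes name FastQC, HISAT2 and hg38. The quantification tool, the annotation and the use of strand are not given in the sources used here. Each of the 6 sample files equals its column of the series table (199167 transcripts, 198868 of them in GENCODE 29), and no column belonged to another series.

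FPKM values were summed per gene. The files hold no counts, so the DESeq test of the study could not be repeated, and limma (3.58.1, R 4.3.3) with trend was fitted on log2(FPKM + 1). Fold changes on this scale understate the change of low genes. Depth was estimated from the low values of 14216 single-transcript genes between 600 and 5000 bases long. These were 2782 to 3158 values per sample. Of them, 31.6% to 35.9% lay within 0.1 of a whole fragment, so whole reads were not recovered and the depths are rough. Estimated fragments cover counting error only. Single values were compared with exact two-sided permutation tests. Python 3.11.15, numpy 2.4.6, pandas 2.3.3, scipy 1.17.1 and matplotlib 3.10.9 were used.

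The members and gene lists were chosen with earlier results of these data known. The text names all members, BRCA1, the ADAR transcripts and the highest transcript of a member; from each other list the gene with the smallest adjusted p-value in each direction and, up to 4 in all, those with the largest fold changes among genes below 0.05, and genes at 0 in all samples; and the 3 most similar patterns. RBM47, UNG, EIF2AK2, RELA, STAT2, IRF9, CD68, the keratin genes, EPCAM, TP63, AL022318.4, APOBEC3B-AS1, APOBEC3A-205, APOBEC3F-202 and APOBEC3G-201 were named with their values already known. Some genes that this rule covers are not reported here. The interferon-response and NF-kB letters were shortened by 1 base after a first search, which also found none in these windows. Alternatives were a pseudocount of 0.1, no filter, a filter of 1 FPKM, median-of-ratios scaling, scaling to nuclear protein-coding genes, robust estimation, a replicate block, single transcripts and leaving out 1 sample at a time. Counting ADAR-208 as p150 was added with the values known.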

Additional observations from a re-analysis of the deposited data

How the results depend on the processing

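ADAR kept its rise and its call in 13 of 14 alternatives. The exception took the transcript with the highest mean FPKM, ADAR-202, in place of the gene and gave -1.04 (adjusted p = 0.704 from limma). APOBEC3F kept its direction in all 14 alternatives and lost its call in 5. Its log2 fold change was 0.62 without the filter on low values and 0.64 for its highest transcript, and 0.45 (without NC replicate 3) to 0.699 with single samples left out. The number of members called was 2, and 1 without the filter or with any 1 of the OV-BRCA1 samples left out (range 1 to 2). APOBEC3C and APOBEC3H kept their direction and stayed above the threshold in all alternatives run, 14 and 12. The p150 transcript ran from -2.02 to 0.43 with single samples left out, the reversal being that without OV-BRCA1 replicate 2. With a pseudocount of 0.1 the genes past the criterion numbered 1280 against 651. Of the genes of the neighbour and pathway lists 27 were called, and 22 (without OV-BRCA1 replicate 2) to 28 in the alternatives, 24 with the replicate block. The cause of these changes was not tested. The replicate block left both member calls in place (2 called, APOBEC3F at an adjusted p of 0.0461 in limma). Whether samples with the same replicate number belonged together in the experiment is not given in the sources used here. The deviations of same-numbered samples from their group means had r of -0.0244, 0.025 and 0.0136. Samples with unlike numbers had r of -0.0458 to 0.0315. No pairing was thus visible in the values, which cannot show that the samples were unpaired. The block gave a p150 to p110 difference of -2.92. APOBEC3A, APOBEC3B, APOBEC3D, APOBEC3G and APOBEC3H rest on at most 11.7 estimated fragments per sample.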
